A study of Mus musculus with 12 samples.

Results

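The lymphatic endothelial genes are 8 genes used to recognise the cells that line lymphatic vessels: Lyve1, Prox1, Pdpn, Flt4, Reln, Mmrn1, Foxc2 and Itga9. They were found by gene symbol in the count table of 12 mouse tumours, which held 7 of the 8 among its 25116 rows. Foxc2, a transcription factor of lymphatic valves, is not analysed here. Of the 7, Lyve1, Pdpn, Flt4 and Itga9 passed the filter on low counts and were tested among 15199 genes, whereas Prox1, Reln and Mmrn1 did not pass and are described by their read counts.

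The tumours were grown from E0771, a mouse triple-negative breast cancer cell line, in the mammary fat pads of C57BL/6J mice, and were taken at day 22. Every host, controls included, carried the Tie2CreER and ERKi alleles. Tie2CreER is a recombinase that tamoxifen activates and that the Tie2 promoter directs to endothelial cells, and ERKi is the endorepellin knock-in gene that it switches on. Endorepellin is the C-terminal piece of the basement membrane proteoglycan perlecan and is known to inhibit angiogenesis. The control group received a control injection (5 tumours), and the induced group received tamoxifen (7 tumours). Tamoxifen itself and the knock-in therefore cannot be told apart. Age and sex of the mice were not given in the sources used here, and nothing in the labels says that each tumour came from its own mouse, so p-values measure the spread between these 12 tumours.

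Lymphatic endothelium arises from veins when Prox1 switches on a lymphatic programme, and its growth is driven by Vegfc acting on the receptor encoded by Flt4. None of the genes is exclusive to these cells: Lyve1 is also carried by some tissue-resident macrophages, Pdpn by fibroblasts, Itga9 by smooth muscle and other cells, Flt4 by sprouting blood vessels and Reln by nerve cells. In tumours, lymphatic vessels are known as a route by which cancer cells reach lymph nodes. In bulk tissue, fewer cells of a type and less RNA per cell cannot be told apart.

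Promoter windows are shown for the transcription factor with the fewest reads, Prox1, and for Pdpn and Flt4, which were read in every tumour, so that the start regions of a barely detected and of readily detected genes can be seen together. The sequences are RefSeq windows on GRCm38.p6, from 250 bases before to 50 bases after a transcript start. RefSeq windows were matched for 6 of the members. Prox1 lies at chr1:190170778-190171077 on the minus strand, Pdpn at chr4:143299515-143299814 on the minus strand and Flt4 at chr11:49609429-49609728 on the plus strand. Capitals mark a match to a searched motif.
Prox1: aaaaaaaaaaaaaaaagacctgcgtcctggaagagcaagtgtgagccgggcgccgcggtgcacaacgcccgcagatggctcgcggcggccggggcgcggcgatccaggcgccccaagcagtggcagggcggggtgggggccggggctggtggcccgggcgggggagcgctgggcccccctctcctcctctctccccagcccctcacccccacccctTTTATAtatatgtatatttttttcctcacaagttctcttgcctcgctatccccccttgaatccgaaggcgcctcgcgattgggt
Pdpn: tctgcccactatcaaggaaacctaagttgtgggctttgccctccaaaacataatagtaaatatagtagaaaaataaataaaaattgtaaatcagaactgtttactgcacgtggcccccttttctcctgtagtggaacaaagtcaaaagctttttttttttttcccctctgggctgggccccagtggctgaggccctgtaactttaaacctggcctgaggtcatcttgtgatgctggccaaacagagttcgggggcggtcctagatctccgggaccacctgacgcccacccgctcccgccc
Flt4: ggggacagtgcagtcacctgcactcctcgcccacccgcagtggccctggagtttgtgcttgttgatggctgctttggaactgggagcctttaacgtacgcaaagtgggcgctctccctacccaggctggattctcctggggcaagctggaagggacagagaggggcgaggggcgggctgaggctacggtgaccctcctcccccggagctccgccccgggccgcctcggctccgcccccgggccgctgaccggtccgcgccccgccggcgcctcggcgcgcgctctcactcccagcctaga
Both strands were searched for 5 motifs, chosen with these data known: ETS as CCGGAAG, SOX as AACAAT, AP-1 as TGANTCA, a MAF site as TGCTGA and the TATA box as TATAAA. They are held by 8.86%, 10.7%, 7.81%, 19.5% and 13.6% of 32851 mouse promoter windows of the same length. The Prox1 window held the TATA box letters on its opposite strand, starting at position -34 relative to the transcript start. None of the 5 motifs was found in the Pdpn and Flt4 windows. Of the other members, Reln held an ETS match, Itga9 an AP-1 and a MAF match and Mmrn1 a SOX and a MAF match, the last pair of genes in windows 105002 and 19341 bases from the gene start in the annotation. CpG dinucleotides numbered 25 in the Prox1 window, 26 in the Flt4 window and 7 in the Pdpn window, against a median of 7 over all windows. The windows of Prox1 and Flt4 had more CpG than 81.6% and 83.1% of all windows. A second RefSeq window of Prox1, at chr1:190169466-190169765, held 14 CpG, more than 63.7% of all windows.

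Libraries held 18993192 to 28372821 counts. The first principal component (45.6% of the variance) set 4 libraries apart from the other 8: control 1, control 2, induced 3 and induced 4. Pan-endothelial transcripts were present in every tumour, with Pecam1 at 24.1 to 46.1 CPM (reads scaled to a common library size, with a factor for library composition) and Cdh5 at 31.5 to 62.1 CPM. Of the epithelial markers, Epcam reached at most 1.36 CPM and Krt8 at most 2.29 CPM, although the labels call the line a breast cancer. Perlecan mRNA, counted to Hspg2, was 550 ± 81.4 CPM (SD) in the 5 control and 536 ± 100.1 CPM (SD) in the 7 induced tumours, a log2 fold change of -0.04.

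None of the 4 tested members passed the test of induced against control tumours (edgeR quasi-likelihood test, Benjamini-Hochberg adjusted p = 0.999886 for each). Nor did any other gene: 0 of 15199 genes (0%) passed an adjusted p of 0.05, and DESeq2 and limma-voom also called 0, with 391 and 995 genes below an unadjusted p of 0.05. At an unadjusted p of 0.05 edgeR took 324 genes (2.13%), 90 of them higher (0.592%) and 234 lower (1.54%) in induced tumours, and 0 members. An exact permutation test over the tumours took 1.96% of genes at the same unadjusted level and again 0 members, and the groups did not overlap for 0.0592% of genes and for 0 members. Of the 4 tested members, 2 had a higher and 2 a lower fitted mean in induced tumours, whereas 49.8% of all tested genes were higher. The larger contrasts lay between tumours of 1 group, as the values of each gene show.

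Lyve1 encodes a hyaluronan receptor of lymphatic capillaries and lies at chr7:110850607-110863239 on the minus strand (GRCm38, as are the gene positions below). Control tumours 1 to 5 held 31.3, 4.66, 2.88, 2.86 and 4.05 CPM of Lyve1. Induced tumours ranged from 1.37 through a median of 3.84 to 67.0 CPM, the highest being induced 4. Control 1 and induced 4 stood far above the other 10 tumours, which lay between 1.37 and 5.72 CPM, and the groups overlapped. In reads, Lyve1 had 903 in control 1 and 1816 in induced 4, and 36 to 133 in the others.

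The direction of the Lyve1 difference depended on these libraries. The fitted log2 fold change, induced over control, was 0.45 with a standard error of 1.00. The difference in mean log2 CPM had the opposite sign, -0.16, with a 95% interval of -2.16 to 2.04 (exact permutation test, two-sided, p = 0.855, n = 5 and 7). That interval spans a 0.224-fold to a 4.11-fold level. Without induced 4 the edgeR fold change was -1.42 (edgeR adjusted p = 0.908), and without control 1 it was 1.80. Without both it was -0.075. The authors' deposited table lists -1.40 for Lyve1 with no p-value. DESeq2 run here gave -1.41 after its outlier step had replaced the 1816 reads of induced 4 by 105, and 0.44 when that step was switched off.

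Pdpn encodes podoplanin, a membrane mucin that binds the platelet receptor CLEC-2, and lies at chr4:143267431-143299564 on the minus strand. Its level was 18.8, 2.98, 1.61, 3.77 and 2.40 CPM in control tumours 1 to 5. The induced tumours went from 1.87 through a median of 2.87 to 12.7 CPM of Pdpn. The same pair of tumours, control 1 and induced 4, was highest, and the group medians of 2.98 and 2.87 CPM were close. The log2 fold change was -0.50 with a standard error of 0.65, and the difference in mean log2 CPM was -0.22 with an interval of -1.69 to 1.16 (exact permutation p = 0.710). Without control 1 the Pdpn fold change was 0.63, and without both tumours it was 0.028. The authors' deposited table lists -0.51 for Pdpn, again with no p-value.

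Itga9 encodes the alpha-9 integrin subunit, which pairs with beta-1 and is needed for lymphatic valves. The gene lies at chr9:118606690-118901003 on the plus strand. Control tumours 1 to 5 held 20.5, 6.38, 3.18, 3.90 and 5.37 CPM of Itga9. Induced tumours ranged from 1.91 through a median of 5.88 to 9.03 CPM, with induced 1 and induced 4 (8.93 CPM) at the top. Control 1 held more than 2 times the level of any other tumour, and the rest of the groups overlapped. The log2 fold change was -0.42 with a standard error of 0.47, and the difference in mean log2 CPM was -0.20 with an interval of -1.39 to 0.86 (exact permutation p = 0.711). Without control 1 the fold change was 0.32.

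Flt4 encodes VEGFR-3, the receptor for Vegfc and Vegfd, and lies at chr11:49609263-49652739 on the plus strand. Control tumours 1 to 5 held 1.63, 1.86, 1.12, 1.77 and 1.84 CPM of Flt4. Induced tumours ranged from 1.64 through a median of 1.85 to 2.63 CPM. All 7 induced tumours lay above the control mean on the log2 scale, but so did every control tumour except control 3, the lowest of all. The groups overlapped, and without control 3 the fold change was 0.14 (edgeR unadjusted p = 0.542). The Flt4 log2 fold change was 0.26 with a standard error of 0.22, and it had the smallest p among the members. The difference in mean log2 CPM was 0.25 with an interval of -0.08 to 0.58 (exact permutation p = 0.141), which spans a 0.946-fold to a 1.49-fold level. Control 1 and induced 4 did not stand apart for Flt4, and leaving out any 1 library kept the fold change between 0.14 and 0.30.

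**Figure D1:**
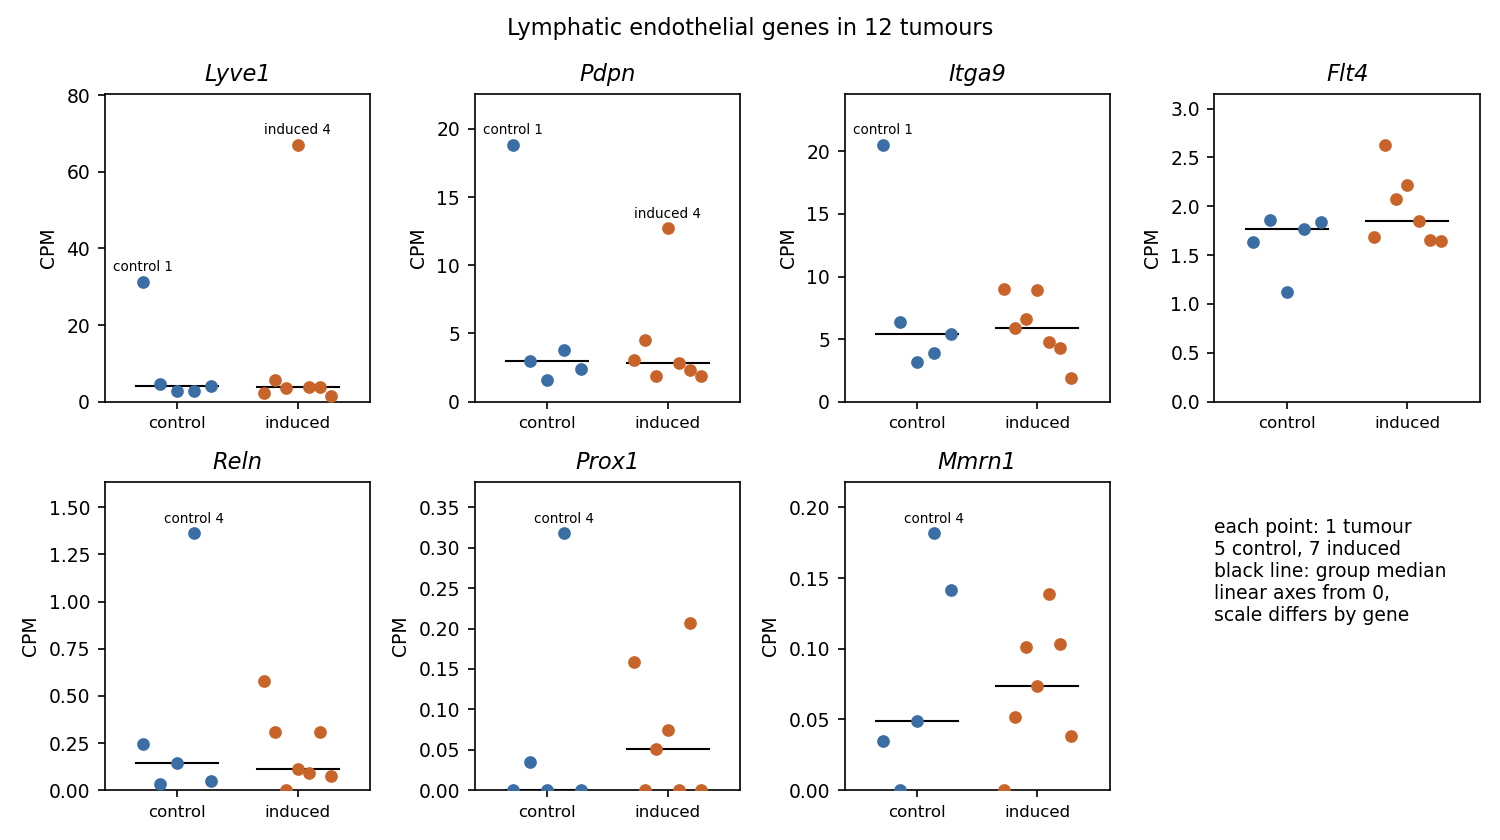
CPM of the 7 measured lymphatic endothelial genes in each tumour (points; 5 control, 7 induced), with the group median as a line and a linear axis from 0 whose scale differs by gene. Lyve1 reaches 31.3 CPM in control 1 and 67.0 CPM in induced 4, Flt4 stays between 1.12 and 2.63 CPM in every tumour, and Reln, Prox1 and Mmrn1 are highest in control 4.

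**Figure D2:**
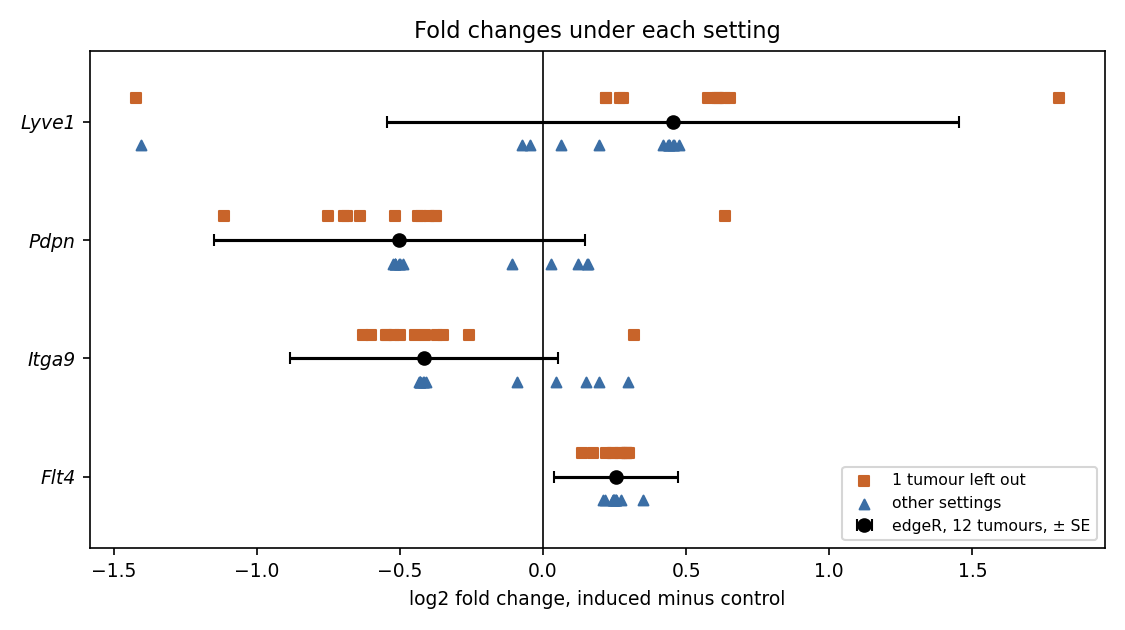
Log2 fold change, induced minus control, of the 4 tested lymphatic endothelial genes: black points are the edgeR values from 12 tumours with standard errors, squares the values with 1 tumour left out and triangles other settings. Lyve1 moves from -1.42 to 1.80 as single tumours are left out, whereas Flt4 stays between 0.14 and 0.30.

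The remaining 3 genes were near the limit of detection. Prox1, the transcription factor that sets lymphatic identity, lies at chr1:190118035-190170714 on the minus strand. In control tumours 1 to 5, Prox1 had 0, 1, 0, 7 and 0 reads. The induced tumours had 0 to 4 Prox1 reads with a median of 1. In all, 18 reads of Prox1 were counted over 12 libraries (exact Poisson 95% interval 10.7 to 28.4, counting error only, since reads are not independent molecules), and 6 of the 12 had none. A count of 0 allows up to 3 reads, which is 0.104 CPM in control 1 at its depth. The 2 tumours with the most Lyve1 had 0 and 2 reads of Prox1, in control 1 and induced 4.

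Mmrn1, which encodes multimerin-1 of platelets and lymphatic endothelium, lies at chr6:60924976-60989378 on the plus strand. Mmrn1 had 1, 0, 1, 4 and 3 reads in control tumours 1 to 5 and 0 to 3 in induced tumours, with a median of 2. Its 20 reads were spread over 10 of the 12 libraries, and no tumour stood apart. Reln encodes reelin, a secreted glycoprotein made by neurons and by collecting lymphatic vessels, and lies at chr5:21884454-22344702 on the minus strand. Reln had 7, 1, 3, 30 and 1 reads in control tumours 1 to 5, and 0 to 11 in induced tumours with a median of 3. Control 4 alone held 30 of the 72 reads of Reln.

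The groups could not be separated for any of these genes at this depth. Differences in mean log2 CPM were 0.14 for Prox1 (interval -0.98 to 1.18, exact permutation p = 0.803), -0.01 for Mmrn1 (interval -0.74 to 0.70, exact permutation p = 0.958) and -0.21 for Reln (interval -1.76 to 1.29, exact permutation p = 0.778). Without control 4 the Reln difference turned to 0.38 and the Prox1 difference rose to 0.56. Control 4 was also high in skeletal muscle transcripts. The summed level of 12 muscle genes was 579.6 CPM there against 9.12 to 235.3 CPM in 10 tumours, and it was 571.5 CPM in induced 4, which had 3 reads of Reln. The part of muscle or nerve in these reads was not tested. Antisense genes share 1.585% of the exonic bases of Prox1 (Prox1os) and 1.036% of those of Reln (Gm10475), and as strand use was not given in the sources used here, their reads cannot be told apart there.

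Levels between genes were compared per kb of exonic sequence. The median level over 12 tumours was 1.61 CPM per kb for Pdpn, 1.33 for Lyve1, 0.731 for Itga9, 0.219 for Flt4, 0.0107 for Mmrn1, 0.00542 for Reln and 0.00209 for Prox1. Pdpn and Lyve1 did not differ in order, since Pdpn was the higher in 6 of 12 tumours. Lyve1 exceeded Itga9 in 11 of 12 tumours and Itga9 exceeded Flt4 in 12 of 12. Flt4 and Mmrn1 were the only neighbours in this order whose ranges did not overlap. Mmrn1 exceeded Reln in 7, and Reln exceeded Prox1 in 8 of the 12 tumours, so the order of the last 3 is not resolved. On the same scale the blood and lymphatic endothelial genes Cdh5 and Pecam1 had medians of 10.1 and 5.18 CPM per kb.

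The members differed in how much they varied among tumours of 1 group. The biological coefficient of variation, the spread between replicates beyond counting noise, was 107.8% for Lyve1, 75.2% for Pdpn, 56.1% for Itga9 and 26.4% for Flt4. Set against genes of like abundance (within 0.5 log2 CPM), Lyve1 was at the 99.3rd percentile of variation, Pdpn at the 93.6th, Itga9 at the 88.5th and Flt4 at the 2.44th. The median of such genes was 24.1% for Lyve1 and 42.0% for Flt4, so Lyve1 was among the most variable and Flt4 among the least variable genes of its abundance. For Lyve1, control 1 and induced 4 weigh on both the mean abundance and the variation. The SD of its CPM was 174.1% of the mean over all 12 tumours and 34.8% over the other 10.

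**Figure D3:**
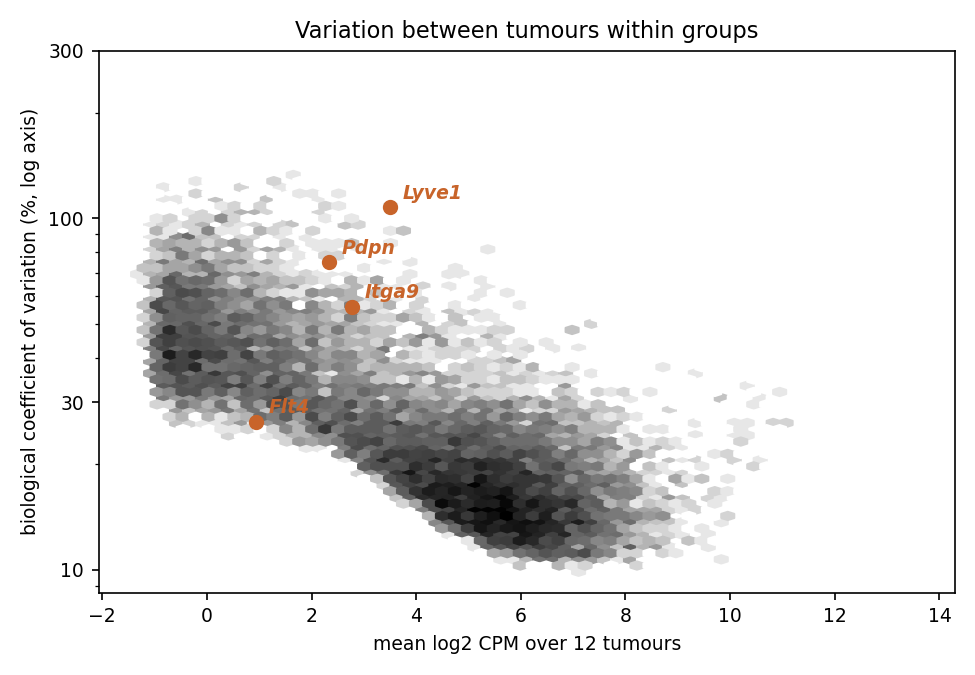
Biological coefficient of variation (percent, log axis) against mean abundance (log2 CPM) for the 15199 tested genes, shaded by the number of genes, with the 4 tested lymphatic endothelial genes marked. Lyve1 (107.8%) lies at the top of its abundance range and Flt4 (26.4%) near the bottom.

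Control 1 and induced 4 were compared with the median of the other 10 tumours for members and for other cell types. Lyve1 was 8.61 times that median in control 1 and 18.4 times in induced 4. Pdpn was 7.15 and 4.83 times the median, and Itga9 4.05 and 1.76 times. Flt4 was 0.903 and 1.23 times, beside the endothelial genes Pecam1 (1.50 and 1.09 times) and Cdh5 (1.05 and 0.936 times).

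Markers of several other cell types, macrophages and fibroblasts among them, were high in the same tumours. Mrc1, which stands first on the macrophage list, was 8.51 times the median of the other 10 in control 1 and 6.73 times in induced 4. The macrophage genes Adgre1 and Csf1r were 8.02 and 2.99 times and 6.51 and 4.12 times that median. Cd163, a scavenger receptor of resident macrophages, was 14.9 and 20.7 times the median of the other 10. F13a1, also a gene of such macrophages, was 13.2 and 18.3 times the median, and Folr2 14.7 and 9.83 times. Col1a1, first on the fibroblast list, was 9.86 and 6.82 times the median, and Dcn, the fibroblast proteoglycan decorin, 34.1 and 6.57 times. By list, control 1 and induced 4 were the 2 highest libraries for 11 of 11 tested macrophage genes, 10 of 12 fibroblast genes and 2 of 18 blood and pan-endothelial genes, against 8.01% of all tested genes. Lyve1 and Pdpn, by which the pair was singled out, are not counted as a result here. The summed level of the 13 macrophage genes was 1180 CPM in control 1 and 810.0 CPM in induced 4, against 127.3 to 298.3 CPM in the other 10. The summed level of the 12 fibroblast genes was 3773 CPM in control 1 and 2220 CPM in induced 4, against 562.4 to 1259 CPM in the other 10. The adipocyte gene Adipoq was 22.4 and 9.35 times the median of the other 10 and Plin1 13.2 and 4.84 times, but the 8 adipocyte genes summed to 94.3 and 55.2 CPM against 32.7 to 86.2 CPM in the others, so induced 4 was within that range. The platelet gene Pf4 was 3.05 and 5.97 times the median, but Itga2b was 1.24 and 0.767 times and Ppbp 1.02 and 14.4 times. The 8 measured platelet and megakaryocyte genes summed to 31.4 and 63.3 CPM against 8.78 to 23.0 CPM. Pf4 alone made up 27.5 and 53.8 CPM of those 2 sums. Control 1 and induced 4 were the 2 highest libraries for 1 of 3 tested platelet and megakaryocyte genes. The part of any of these cell types in the levels of Lyve1 and Pdpn was not tested.

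**Figure D4:**
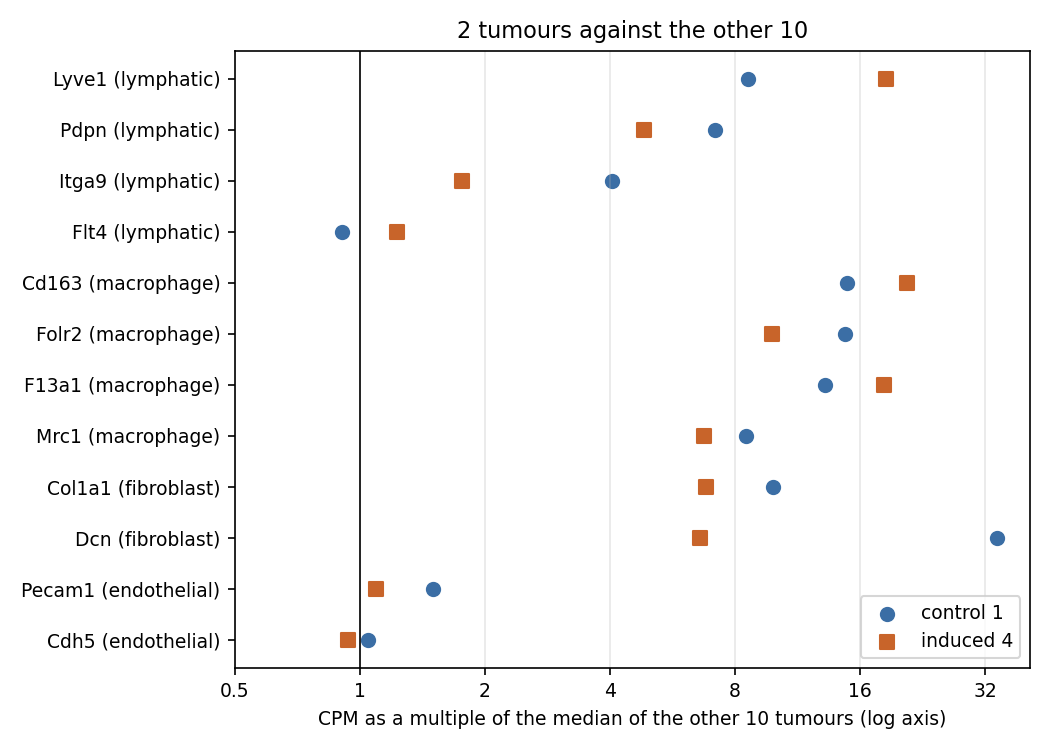
Level in control 1 and in induced 4 relative to the median of the other 10 tumours (ratio, log axis) for lymphatic endothelial genes and for marker genes of blood endothelium, macrophages and fibroblasts. Lyve1 and Pdpn are raised in both tumours, as are the macrophage and fibroblast markers, and Flt4 lies near a ratio of 1, as do Pecam1 and Cdh5. Itga9 lies between, at 4.05 in control 1 and 1.76 in induced 4. The part of these cell types in the members was not tested.

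Over all 12 tumours 2 of the 21 pairs of members passed by Pearson's r, Lyve1 with Pdpn and Pdpn with Itga9 (permutation test, adjusted p = 0.0293 for both), and by Spearman's rho 0 did. Without control 1 and induced 4, r was 0.47 and 0.44. As the tumours fell into 2 clusters, r is given within the 8 tumours of the larger cluster, where none of the 21 pairs passed an adjusted p of 0.05. The highest r between tested members was 0.84, for Pdpn and Flt4 (exact permutation p = 0.00704, adjusted over the 21 pairs 0.0938). Spearman's rho for this pair was 0.81 (exact permutation p = 0.0218, adjusted 0.229), and r fell to 0.43 without the 2 tumours farthest from the median of Pdpn, control 3 and induced 2. Lyve1 and Pdpn, which shared their extreme tumours, had r = 0.51 (exact permutation p = 0.195) and rho = 0.29 (exact permutation p = 0.501) among these 8.

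The genes that ranked the 12 tumours most like each tested member were sought among 11124 genes with a mean log2 CPM over 1. They are given as a description with no test, since the libraries share depth and cell makeup. The highest of so many rho values over 12 tumours can also be large without any link between the genes. For Lyve1 these were Flot2 (Spearman rho 0.979), a membrane raft protein, and the interferon-induced GTPases Ifi47 (0.944) and Tgtp1 (0.923). For Pdpn they were the inhibitory Fc receptor Fcgr2b (0.944), Rasgef1b (0.937) and the lysophosphatidic acid receptor Lpar1 (0.930). For Itga9 they were Nnat (0.958), the TGF-beta receptor Tgfbr1 (0.951) and Stard9 (0.937). For Flt4 they were the granzyme Gzmg (0.888), Washc1 (0.881) and the granzyme Gzmd (0.881). Pearson's r with Flt4 was lower, at 0.72, 0.51 and 0.76, and Flt4 had only 23 to 60 reads per tumour.

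Other genes of lymphangiogenesis gave no call either. The list held 57 gene symbols, with Vegfd also under its older name Figf and Gdf2 also as Bmp9. Of these, 51 were in the table and 45 were tested, and 0 of the 45 passed the threshold. Of the 45, 13 had a higher and 32 a lower mean in induced tumours, whereas 49.8% of all tested genes were higher. The median log2 fold change was -0.09 against -0.00083 over all tested genes. Control 1 and induced 4 were the 2 highest libraries for 10 of the 45, against 8.01% of all tested genes. By fitted fold change, 12 of 12 fibroblast genes and 10 of 11 macrophage genes were lower in induced tumours. Control 1 had the highest sum of both lists, and these directions were not counted without it. Medians of the summed fibroblast level were 1025 (control) and 775.0 CPM (induced). For the macrophage list the medians were close, at 213.7 (control) and 220.6 CPM (induced), with the induced one the higher. The part of such cells in the 32 was not tested. At an unadjusted p of 0.05 there was 1 gene with edgeR, 1 with DESeq2 and 4 with limma-voom, beside 324 (2.13%), 391 and 995 among all genes. The values below for single genes are edgeR log2 fold changes, and none passed the adjusted threshold.

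Among ligands and the factors that process them, 1 of 8 tested genes was higher and 7 were lower. Vegfc, the main lymphatic growth factor, was 1.20 ± 0.353 CPM in control (SD, n = 5) and 1.12 ± 0.340 CPM in induced tumours (SD, n = 7), a log2 fold change of -0.11 with a standard error of 0.30. Vegfd had a log2 fold change of -0.06, and Ccbe1, which helps to activate Vegfc, -0.22. Svep1, an extracellular matrix protein needed for lymphatic remodelling, had the smallest p of the list, with -2.26 and a standard error of 1.03 (edgeR adjusted p = 0.999886). Control 1 held 20.5 CPM of Svep1 against 0.538 to 1.37 CPM in the other control tumours, and induced 4 held 4.43 CPM against 0.115 to 0.647 CPM in the other induced tumours. The fold change was 0.13 without control 1, -3.53 without induced 4 and -1.14 without both, so its size depended on these tumours, and it was below 0 except where control 1 alone was left out. Svep1 is also made by fibroblasts, whose summed level in control 1 is given above, and their part was not tested.

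Among receptors, 8 of 13 were higher and 5 lower. Nrp2, the co-receptor of Flt4, was abundant at 394.9 ± 52.5 CPM in control (SD, n = 5) and 434.6 ± 64.5 CPM in induced tumours (SD, n = 7), with a log2 fold change of 0.14. Kdr, the main VEGF receptor of blood vessels, had -0.06, and Tie1 -0.02. Epha2, an ephrin receptor, had 0.21 with a standard error of 0.10. Of 9 transcription factors 2 were higher and 7 lower, including Sox18 (-0.05), which switches on Prox1, Nr2f2 (0.16), its partner in veins, Gata2 (-0.09) and Hhex (-0.62). Of 10 valve, junction and guidance genes 1 was higher and 9 lower, with Acvrl1, a BMP9 receptor, at -0.59. Without control 1, Hhex moved to -0.24 and Acvrl1 to -0.19. The list of chemokines and scavenger receptors of lymphatic endothelium had 5 tested genes, Ackr2, Stab1, Cd36, Thy1 and Cldn5. Its chemokine Ccl21a was not found by symbol. Of the 5 tested genes 1 was higher and 4 lower. Control 1 and induced 4 were the highest libraries for 3 of these 5. The 7 measured genes of the list summed to 235.3 and 164.0 CPM there against 42.6 to 63.6 CPM in the other 10. Stab1 is also on the macrophage list, and Cldn5 on the blood and pan-endothelial list. Of 18 blood and pan-endothelial genes 8 were higher, 10 lower and 0 past the threshold.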

How the data were processed

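Bulk RNA-seq of 12 tumours, 5 control and 7 induced, was analysed from 1 deposited table. The authors deposited raw counts by Ensembl ID, log2 values (rlog) and their own comparison, per the file headers. In that deposited comparison each gene has a log2 fold change, a fold ratio with a sign, and p-values before and after adjustment. The rlog values and signed ratios were not used. Per the labels' protocols, RNA was extracted with a column kit and libraries were made with a SMARTER kit. Per the submitters' processing notes the build was GRCm38 (mm10), while aligner, counter and strand use were not given in the sources used here. Growth and treatment texts of the labels describe fat cell differentiation in culture and do not match tumours, so groups come from the sample titles.

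The 8 members and all gene lists were chosen with earlier results of these data known. Members were matched by symbol. Counts were fitted with edgeR 4.0.16 in R 4.3.3 (filterByExpr with a minimum count of 10, 15199 genes kept and 9917 removed, TMM factors, robust quasi-likelihood test, two-sided, Benjamini-Hochberg adjustment over all tested genes, threshold 0.05). CPM used TMM factors, and log2 CPM a prior count of 2. Exact permutation tests used all 792 assignments of the group labels, with 0.00126 the smallest p they can give. Intervals are 95% intervals from inverting that test. Named pathway genes were fixed by role, plus the 4 with the smallest p. Alternatives were other size factors and filters, DESeq2 1.42.0, limma-voom (limma 3.58.1), a replicate block, a term for or the removal of the 4 libraries that stand apart, and each library left out. DESeq2 without its outlier step and the removal of control 1 and induced 4 together were added after the data were seen. Gene positions and exonic length came from GENCODE mouse release 21. The fit was tested on simulated counts.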

Additional observations from a re-analysis of the deposited data

Results flagged for a closer look

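In 13 of the 40 checked sets of 1 gene in 1 group, 1 tumour lay far from the others by Dixon's criterion on CPM. A chance rate of about 1 in 20 would hold for independent sets of normally distributed values. CPM was not put on a log scale here, the sets share the same tumours, and some genes were chosen for a small p. The 13 sets therefore cannot be compared with that rate and are given as a description. Lyve1 stood apart in control 1 (31.3 CPM) and induced 4 (67.0 CPM), and Pdpn in the same tumours (18.8 and 12.7 CPM). Itga9 did so in control 1 (20.5 CPM). Prox1 and Reln did so in control 4, with 0.318 and 1.36 CPM. Among pathway genes, control 1 was the highest control tumour for Ccbe1 (6.62 CPM), Svep1 (20.5 CPM), Acvrl1 (29.1 CPM) and Hhex (6.59 CPM). Induced 4 was the highest induced tumour for Svep1 (4.43 CPM), and control 3 the highest control tumour for Sox18 (5.82 CPM). Neither Flt4 nor Mmrn1 had such a tumour in either group.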

How the results depend on the processing

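Of the 24 alternatives, calls were counted in 23. In each of these, 0 members, 0 lymphangiogenesis genes and 0 of all genes passed the adjusted threshold. Calls were not counted for DESeq2 with its outlier step switched off, which was used for fold changes only. Flt4 kept its direction in each alternative in which it was fitted, which leaves out the filter on a mean log2 CPM over 1, since that filter removed it. Leaving out each library in turn gave log2 fold changes of -1.42 to 1.80 for Lyve1, -1.11 to 0.63 for Pdpn, -0.63 to 0.32 for Itga9, 0.14 to 0.30 for Flt4 and -3.53 to 0.13 for Svep1. The same gave differences in mean log2 CPM of -0.78 to 0.47 for Lyve1, -0.034 to 0.56 for Prox1, -0.54 to 0.35 for Pdpn, 0.12 to 0.29 for Flt4, -0.51 to 0.38 for Reln, -0.22 to 0.18 for Mmrn1 and -0.43 to 0.23 for Itga9. Fold changes also turned without the 4 libraries that stand apart (Pdpn 0.16, Itga9 0.30), with limma-voom (Lyve1 -0.045, Pdpn 0.15, Itga9 0.045), with DESeq2 (Lyve1 -1.41, after its outlier replacement) and without both control 1 and induced 4, added after the data were seen (Lyve1 -0.075, Pdpn 0.028, Itga9 0.19). Differences in mean log2 CPM turned for Mmrn1 with a prior count of 0.5 (0.052), for Prox1 (-0.089), Pdpn (0.19) and Itga9 (0.18) without the 4 libraries, and for Prox1 (-0.024), Pdpn (0.030) and Itga9 (0.11) without control 1 and induced 4. The cause was not tested. Member pairs past the threshold numbered 2 by Pearson's r over all 12 tumours, 0 by Spearman's rho and 0 without the 4 libraries.

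Same-numbered tumours did not deviate together (correlations -0.531 to 0.21, and none of the 5 correlated best with its own number), so the numbers were not taken as pairs. With a replicate block 0 genes were called, and the fold changes were 0.20 for Lyve1, 0.35 for Flt4, 0.12 for Pdpn and 0.15 for Itga9, the last 2 being reversed. Depth limits Prox1, Mmrn1 and Reln, which had 18, 20 and 72 reads in all.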
